A study of Mus musculus with 30 samples.

Results

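Chromatin sites that lost accessibility when CD4 T cells were activated were described across 12 ATAC-seq libraries and 18 RNA-seq libraries. After activation they reached nearly the same level in control cells and in cells described as protein kinase A (PKA) knockouts. ATAC-seq cuts open chromatin with a transposase, so the number of fragments at a site reads how accessible it is. The members were chosen from the measured values: 7673 of 110808 sites (6.92%) met both conditions. The first was a log2 ratio of activated to naive wild-type (WT) cells of -2 or less, on group means of 3 libraries with 0.5 CPM added, where CPM is a count scaled to a library total of 1000000. The second was a log2 ratio of activated knockout (KO) to activated WT cells of less than 0.5 in size. Of 8327 sites that met the first condition, 654 failed the second. The values of naive KO libraries and all RNA values had no part in the choice.

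The cells were murine CD4 T cells of lymph nodes and spleen, enriched with a CD4 kit and then sorted. The titles call the genotypes WT and KO, and the series text describes control and PKA KO cells without naming the targeted gene, the promoter of a deleter line or the age of the mice. Naive cells were compared with cells activated for 3 days with antibodies to CD3 and CD28, by ATAC-seq and by RNA-seq. Another RNA-seq condition was cells rested for 3 days with IL-7 and then given forskolin, which raises cyclic AMP, at 1 ug/mL for 4 h, in WT and KO cells. Rested cells without forskolin were not analysed here, so its effect cannot be told apart from that of resting. Each of the 10 groups had 3 libraries, whose animals of origin the labels do not give. The p-values therefore speak only of the spread among these libraries, part or all of which may be technical. Cell number and RNA per cell cannot be told apart in such bulk libraries.

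Libraries of a group resembled each other, with Pearson r across sites or genes of 0.980 to 0.993 for ATAC, 0.988 to 0.996 for RNA of naive and activated cells and 0.973 to 0.993 for RNA after forskolin. Some libraries lay farther from their partners than these did from each other, 4 of which are given here. ATAC activated WT library 1 had r of 0.983 and 0.980 against 0.990, and RNA forskolin KO library 1 had 0.975 and 0.973 against 0.991. RNA activated WT library 1 had a mean chi-square per gene of 9.25 and 10.2 against 1.63, and RNA naive WT library 3 had 16.1 and 17.8 against 6.63. Of the counts given here, those without these 4 libraries moved by over 1.5 times in 1 case, that of members lower in naive KO. Genes that fell with activation in WT, for example, numbered 1675 without RNA activated WT library 1 and 1673 without RNA naive WT library 3. Totals were 18522373 to 25318916 counts in ATAC libraries and 7665955 to 11950488 in RNA libraries. RNA of Prkaca, which encodes a catalytic subunit of PKA, was 34.8 ± 5.11 CPM in naive WT (SD, n = 3) and 2.33 ± 0.273 CPM in naive KO. In activated cells it was 49.6 ± 6.17 CPM in WT and 1.11 ± 0.291 CPM in KO. No Prkaca library of one genotype overlapped the other. Summed RNA of 5 CD4 T cell markers was 3535 to 3656 CPM in naive WT and 2308 to 2433 CPM in activated WT. The defining B cell gene Ms4a1 was near 0 in naive WT, at 0.186 CPM. Summed RNA of the 10 B cell markers listed was 302 to 320 CPM in naive WT, nearly all of it Ighm.

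Naive T cells are small, quiescent lymphocytes that circulate through lymph nodes and are kept alive by IL-7. Their program depends on the transcription factors TCF1, LEF1, KLF2, FOXO1 and others of the ETS and RUNX families, which bind enhancers that lie mostly away from gene starts. Signals through the T cell receptor and CD28 start growth and division, and many of these enhancers lose accessibility as the naive program is shut down. PKA is the kinase switched on by cyclic AMP and is known to restrain T cell receptor signalling.

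The members' own sequences could not be read, since no genome of the mm10 build was used here, so sequence is shown where a member covered at least 150 bases of the 250 bases before a RefSeq gene start (GRCm38.p6, the assembly of mm10). There were 93 such windows among 32817. The first 4 shown were chosen after their values were seen. Each holds at least 1 core motif of a family of naive T cell factors: CTTTGA (TCF and LEF), GGAAGT (ETS) or TGTGGT (RUNX), in capitals on either strand, written 5′ to 3′ along the gene.
Txk, chr5:72752778-72753027, minus strand: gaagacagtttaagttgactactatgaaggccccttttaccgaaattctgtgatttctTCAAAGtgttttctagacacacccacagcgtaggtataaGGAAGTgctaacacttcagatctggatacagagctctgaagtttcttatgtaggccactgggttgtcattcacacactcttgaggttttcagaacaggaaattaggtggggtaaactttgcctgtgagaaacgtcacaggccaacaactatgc
Hpgds, chr6:65144731-65144980, minus strand: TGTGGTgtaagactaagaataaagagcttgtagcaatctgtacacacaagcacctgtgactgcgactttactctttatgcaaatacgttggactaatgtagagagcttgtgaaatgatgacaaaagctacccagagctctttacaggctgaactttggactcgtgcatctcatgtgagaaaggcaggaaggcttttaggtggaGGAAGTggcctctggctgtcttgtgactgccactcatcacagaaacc
Gmfg, chr7:28440687-28440936, plus strand: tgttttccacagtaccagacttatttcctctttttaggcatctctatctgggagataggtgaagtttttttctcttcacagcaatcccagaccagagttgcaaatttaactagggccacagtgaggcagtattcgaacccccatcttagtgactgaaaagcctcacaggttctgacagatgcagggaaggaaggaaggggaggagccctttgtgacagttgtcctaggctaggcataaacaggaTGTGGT
Cd160, chr3:96814522-96814771, minus strand: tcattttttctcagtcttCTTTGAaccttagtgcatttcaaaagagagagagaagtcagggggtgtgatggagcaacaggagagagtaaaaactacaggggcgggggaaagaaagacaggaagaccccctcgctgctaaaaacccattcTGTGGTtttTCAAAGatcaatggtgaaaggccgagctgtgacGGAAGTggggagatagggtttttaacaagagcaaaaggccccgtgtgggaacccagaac
A further pair is shown because it had the highest naive accessibility among the windows considered for display and holds none of the 3 cores. Considered were not all 93 windows but those of selected genes with tested RNA, on all but 1 chromosome.
Rasgrp2, chr19:6399625-6399874, plus strand: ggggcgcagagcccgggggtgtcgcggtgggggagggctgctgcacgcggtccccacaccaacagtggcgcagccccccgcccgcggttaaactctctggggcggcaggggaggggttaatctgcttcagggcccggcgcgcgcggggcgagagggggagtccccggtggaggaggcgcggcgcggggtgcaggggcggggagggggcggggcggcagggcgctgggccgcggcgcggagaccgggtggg
Iqgap2, chr13:95891923-95892172, minus strand: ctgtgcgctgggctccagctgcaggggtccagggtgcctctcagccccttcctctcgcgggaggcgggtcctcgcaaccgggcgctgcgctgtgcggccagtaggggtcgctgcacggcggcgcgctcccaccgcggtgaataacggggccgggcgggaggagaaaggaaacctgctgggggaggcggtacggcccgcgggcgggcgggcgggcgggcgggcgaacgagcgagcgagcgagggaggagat

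Txk encodes a TEC family kinase of T cell receptor signalling, and its window holds 1 TCF and LEF core and 1 ETS core. The member there, chr5:72752623-72753023, had 84.7, 81.5 and 82.7 CPM in the 3 naive WT libraries and 80.5, 75.6 and 77.3 CPM in naive KO. After activation it had 15.8, 15.4 and 15.3 CPM in WT and 13.7, 15.2 and 14.8 CPM in KO. All 6 naive values lay far above all 6 activated values, and the KO values were below all WT values in each state, by little. The member at the start of Gmfg, an actin regulator of blood cells with 1 RUNX core in its window, went from 54.9, 54.2 and 60.5 CPM in naive WT to 13.9, 11.4 and 12.8 CPM in activated WT. The KO values there, 59.7, 54.9 and 59.8 CPM in naive cells and 14.2, 11.7 and 11.8 CPM in activated cells, overlapped those of WT in both states. Cd160, an immunoglobulin superfamily receptor, holds 2 TCF and LEF cores, 1 ETS core and 1 RUNX core, the densest set shown. Its member chr3:96814382-96814782 was weaker, at 11.5, 11.2 and 9.50 CPM in naive WT and 9.45, 10.6 and 12.7 CPM in naive KO. In activated cells it had 1.62, 2.04 and 1.43 CPM in WT and 1.83, 2.13 and 2.05 CPM in KO, again without overlap with the naive values.

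Windows without any core closed as well. Rasgrp2 encodes an exchange factor for RAP1 that acts in integrin adhesion, and its window has a GC content of 79.6%. Its member, chr19:6399453-6399853, had 93.0, 94.4 and 102 CPM in naive WT and 104, 94.4 and 103 CPM in naive KO. It had 14.6, 13.3 and 11.7 CPM in activated WT and 13.3, 13.3 and 13.0 CPM in activated KO. Iqgap2, a scaffold protein of the cytoskeleton, has a window of 75.2% GC, and its member went from 111, 109 and 123 CPM in naive WT to 27.6, 27.4 and 24.7 CPM in activated WT. No match says only that these letters are absent from this window.

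Over all 93 windows, CTTTGA was found in 31.2%, against 9.09% of the 572 windows covered in the same way by sites that opened, 10.2% of the 10101 covered by any site and 13.8% of all windows. The opened sites were 15660 sites with a WT log2 ratio of 2 or more and the same genotype condition. GGAAGT was found in 40.9% of members' windows, 12.6% of opened windows, 25% of those with any site and 19.7% of all. TGTGGT was found in 24.7%, 9.79%, 11% and 14.0%, in the same order. At least 1 of the 3 cores was found in 65.6% of members' windows and 40.2% of all. The E-box CAGGTG was found in 31.2% of members' windows and 17.2% of all. The AP-1 sequence TGANTCA went the other way, with 4.30% of members' windows, 11.4% of opened windows and 6.75% of all. The forkhead sequence GTAAACA, at 3.23% and 3.16%, and the cyclic AMP response element TGACGTCA, at 1.08% and 1.55%, differed little between members' windows and all. The CTCF core CCACNAGGG was found in 0 of 93 members' windows and 1.24% of all. The other E-box, CAGCTG, was found in 15.1% of members' windows and 13.0% of all, and the Kruppel-like sequence CCACCC in 34.4% and 28.1%. The NFAT core GGAAA was found in 65.6% and 55.6%, where it was counted apart from the ETS core with which it shares its first letters. The T-box sequence TCACACC was found in 7.53% and 3.33%. Base composition moved with these shares: the median GC content was 51.6% in members' windows and 61.6% in opened windows, with 4 and 14 CG dinucleotides, and 52.4% and 6 in all windows. The part of base composition in the motif shares was not tested. A match is a string of letters and does not show that a factor was bound.

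Only a small part of the set lay at gene starts. Of 7428 members on chromosomes with listed starts, 203 (2.73%) lay within 1 kb of a start, against 12.4% of all sites and 7.71% of opened sites. Another 24.4% lay 1 to 10 kb away and 72.9% lay beyond 10 kb. For all sites the shares were 23.6% and 64.0%. The median distance was 21.7 kb for members and 17.3 kb for all sites. Inside an annotated gene lay 68.3% of members and 69.6% of all sites, and 58.7% and 61.0% inside a protein-coding gene. Exons and introns were not analysed here. Another member lay within 10 kb of 37.7% of members, and another opened site within 10 kb of 36.4% of the larger set of opened sites. Sites are 400 bp wide in 7671 of the 7673 members, and 7 members lie on unplaced sequences.

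**Figure D1:**
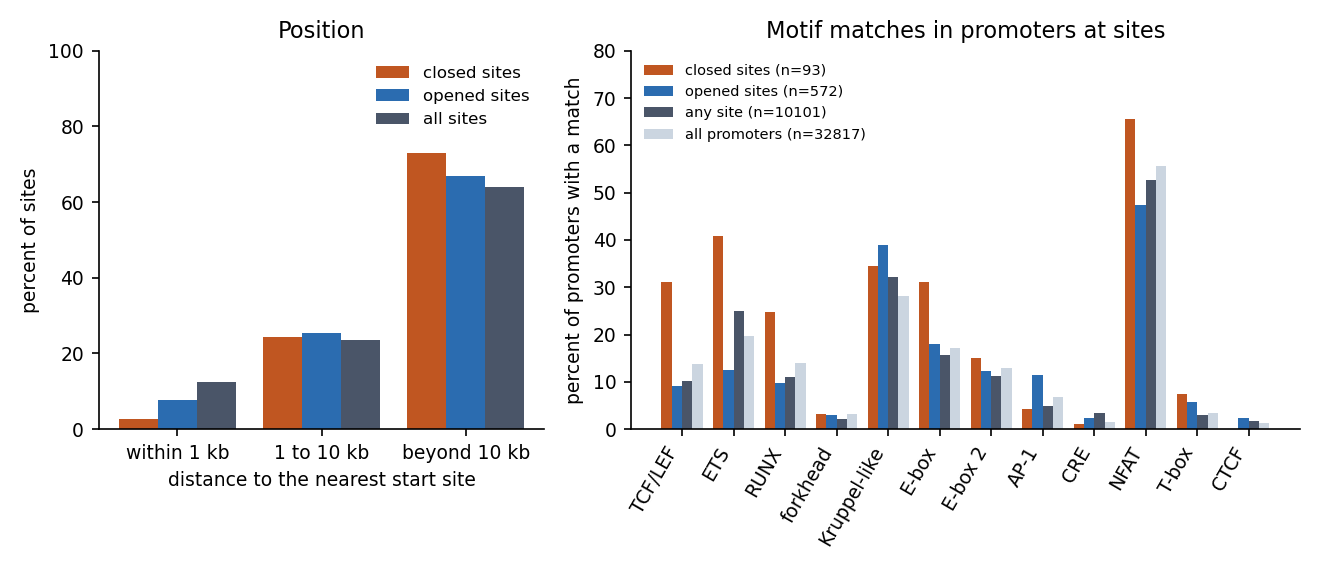
Left, percent of sites by distance to the nearest RefSeq gene start for members, opened sites and all sites; right, percent of 250-base promoter windows that hold each motif on either strand, for windows covered by members, by opened sites, by any site and for all windows. The bars named E-box and E-box 2 are the E-box sequences with GG and with GC in their middle. Members have the smallest share within 1 kb of a start, 2.73%, and the largest shares of windows with the TCF and LEF, ETS and RUNX cores. Their shares are also the largest for both E-boxes, the NFAT and T-box sequences and, by little, the forkhead sequence.

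The members held a large part of all ATAC signal in naive cells and little of it after activation. In naive WT they took 13.1%, 12.7% and 13.2% of all counts (13.0% ± 0.274, SD, n = 3), and in activated WT 1.45%, 1.42% and 1.34% (1.40% ± 0.0566). The WT values follow from how the members were chosen and are a description. In naive KO, which was not used in the choice, the members took 13.3%, 12.6% and 13.5% of counts (13.2% ± 0.452). The share in activated KO, held near WT by the second condition, was 1.42%, 1.34% and 1.36% (1.37% ± 0.0393). The naive KO and naive WT ranges overlapped. The opened sites took 0.956% ± 0.0626 of counts in naive WT, 1.13% ± 0.0966 in naive KO, 15.1% ± 0.0288 in activated WT and 14.7% ± 0.0555 in activated KO.

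**Figure D2:**
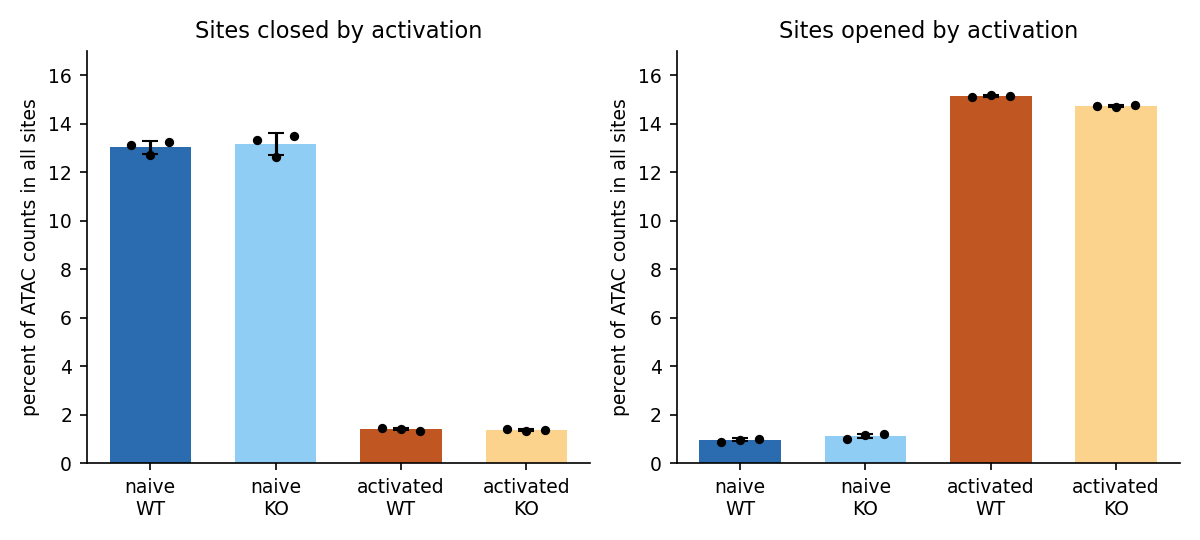
Percent of each ATAC library's counts in members and in opened sites, by group; each point is 1 library and the bar is the mean of 3. Members take 12.6% to 13.5% in the 6 naive libraries and 1.34% to 1.45% in the 6 activated ones, with the genotypes overlapping in naive cells.

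Members differed widely in strength. Their mean in naive WT ran from 1.60 to 153.7 CPM with a median of 10.99 CPM, against a median of 1.44 CPM over all sites. In activated WT their median was 0.904 CPM, 4105 members (53.5%) were under 1 CPM and 167 were at 10 CPM or more. The WT log2 ratio had a median of -2.72 and reached -5.56. It was -3 or less in 2767 members (36.1%) and -4 or less in 569 (7.42%). Few members closed to nothing: 1 member had 0 counts in all 3 activated WT libraries and 0 members had 0 counts in all 3 activated KO libraries. Near the first threshold, chr12:116143715-116144115 was inside at 4.46 CPM in naive WT and 0.740 CPM in activated WT, and chr1:37522160-37522560 was outside at 4.66 and 0.791 CPM. Near the second, chr9:120974608-120975008 was inside at 0.818 CPM in activated WT and 1.36 CPM in activated KO, and chr11:60334236-60334636 was outside at 1.47 and 0.891 CPM. The conditions therefore divided sites that hardly differed.

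Among the strongest members were some in or near genes of the naive program. The highest in naive WT was chr3:115815576-115815976, in no annotated gene, with 159, 142 and 160 CPM. It had 160, 129 and 142 CPM in naive KO, 25.5, 25.6 and 25.5 CPM in activated WT and 20.3, 20.5 and 17.8 CPM in activated KO. The next, chr11:52314131-52314531, inside the gene model Gm30217, lies 31.3 kb before the start of Tcf7, the gene of TCF1, beyond the 10 kb link distance. It had 145, 131 and 163 CPM in naive WT, 163, 137 and 153 CPM in naive KO, 22.1, 23.8 and 22.0 CPM in activated WT and 27.9, 26.9 and 29.6 CPM in activated KO. A member inside Lef1, chr3:131157413-131157813, 1.32 kb after its start, had 123, 118 and 120 CPM in naive WT, 120, 106 and 112 CPM in naive KO, 12.2, 9.45 and 9.92 CPM in activated WT and 7.48, 8.78 and 7.82 CPM in activated KO. At all 3 sites the naive and activated libraries were separate. The naive genotypes overlapped, and the activated genotypes did not, KO being lower at the first and the last and higher at the site before Tcf7, within the limit set by the choice of members.

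The deepest closing was at chr9:115561216-115561616, in no annotated gene. It had 68.4, 59.8 and 73.0 CPM in naive WT and 80.1, 60.5 and 81.8 CPM in naive KO, and between 0.553 and 1.25 CPM in all 6 activated libraries. A member 10.5 kb before the start of Cxcr4, the receptor for the chemokine CXCL12, chr1:128602568-128602968, had 42.7, 44.2 and 46.6 CPM in naive WT and 39.6, 38.2 and 46.8 CPM in naive KO. In activated cells it had 0.592, 0.708 and 0.507 CPM in WT and 0.550, 0.388 and 0.605 CPM in KO. These are close to the smallest amounts the activated libraries can read, since 3 counts there equal 0.118 to 0.145 CPM.

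In KO cells the members closed to a similar degree. The KO log2 ratio, formed as in WT, had a median of -2.75 and ran from -5.84 to -0.88. It was -2 or less in 7055 members (91.9%), above -2 in 618 (8.05%) and above -1 in 2. The lowest naive KO library was above the highest activated KO library in 7670 members, against 28.4% of all sites. In edgeR's quasi-likelihood test with Benjamini-Hochberg adjustment over 110797 sites, 7672 of 7673 members were lower in activated than in naive KO cells, where 38.8% of all sites were called lower and 49.7% higher. Activated KO was tied to activated WT by the choice of members, so this count mainly adds that the naive KO libraries were high at the members. The median fitted change was -4.03 for members and 0.44 for all sites. With scaling to column sums these medians were -3.43 and 1.04, and the members stayed 4.47 below the median of all sites under both scalings.

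**Figure D3:**
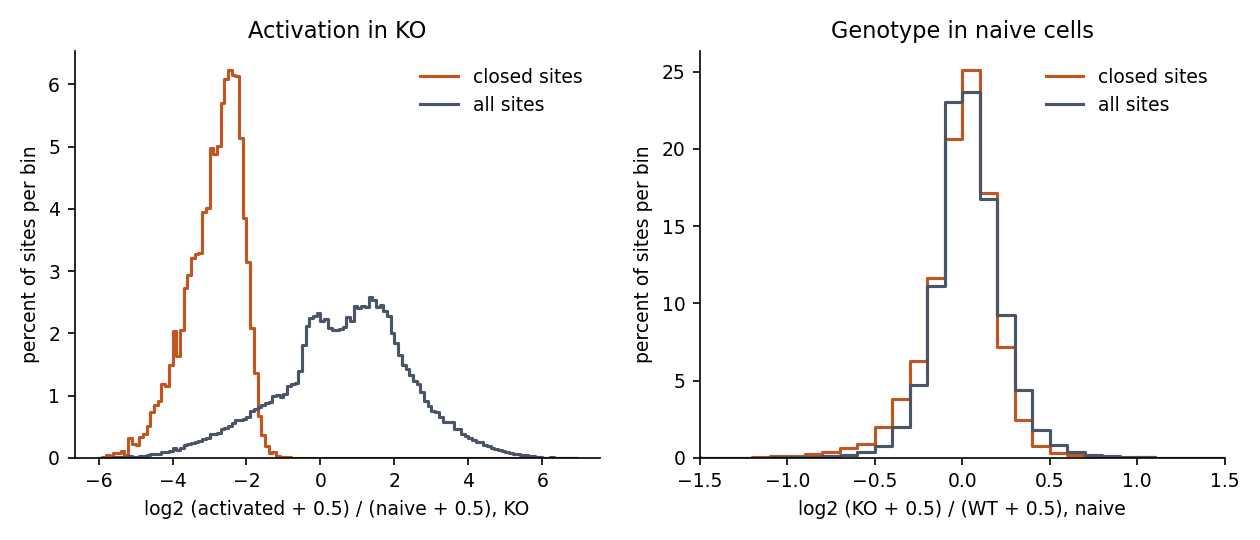
Distribution over members (closed sites) and over all sites of 2 log2 ratios, each on mean CPM with 0.5 added. Left, activated to naive KO cells, and right, naive KO to naive WT cells. The WT activation ratio, which the choice of members set at -2 or less, is not drawn. Over members the KO ratio has its median at -2.75 and the naive ratio is centred at 0.01. Over all sites these medians are 0.78 and 0.03.

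Naive KO and naive WT cells had nearly the same accessibility at the members, as they had over all sites. The log2 ratio of the genotypes in naive cells was within 0.5 of 0 in 7444 members (97.0%). It was -0.5 or less in 185 (2.41%) and 0.5 or more in 44 (0.573%). Its quartiles were -0.11 and 0.11 over members and -0.07 and 0.15 over all sites, with medians of 0.01 and 0.03. Such closeness was therefore not particular to the members. In the edgeR test 181 members (2.36%) were lower in naive KO, against 0.607% of all sites, and 60 (0.782%) were higher, against 0.938% of all sites. Naive WT libraries had to be high for a site to be chosen, which favours lower values in KO, and members have more counts than most sites. The median change was -0.66 in the members called lower and 0.51 in those called higher. With RLE scaling 226 were lower and 27 higher, and the median over members changed sign, from 0.03 to -0.02. These counts rested on single libraries. The count of lower members was 112 without naive WT library 1 or library 2, 110 without naive KO library 1, 83 without naive KO library 3 and 359 without activated WT library 1. The count of higher members was 14 to 139 when any library other than activated WT library 1 was left out.

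In the authors' deposited table for naive cells 2 members had an FDR under 0.05, both lower in KO, against 0.00632% of all sites lower and 0.0108% higher. One was chr17:26368921-26369321, with 9.20, 8.97 and 10.6 CPM in naive WT and 1.95, 2.44 and 3.27 CPM in naive KO. The fitted difference was -1.87 ± 0.16 (SE), with an adjusted p of 7.4e-07. The other was chrX:136645933-136646333 in Tceal3, a gene of the TCEAL family, with 6.92, 6.04 and 6.80 CPM in naive WT and 0.719, 1.70 and 1.72 CPM in naive KO. A stronger site that passed only in the edgeR test was chr11:100845927-100846327 in Stat5b, which encodes a transcription factor downstream of IL-7. It had 33.4, 30.2 and 33.0 CPM in naive WT and 13.8, 16.9 and 16.1 CPM in naive KO, a difference of -1.02 ± 0.09. At these 3 sites the genotypes did not overlap in naive cells. Among members higher in naive KO, chr12:55357268-55357668 in Prorp, a subunit of mitochondrial RNase P, had 7.31, 7.42 and 8.10 CPM in WT and 13.0, 13.0 and 13.5 CPM in KO, a difference of 0.82 ± 0.12 with an adjusted p of 8.3e-04. In activated cells 0 members were called in the authors' deposited table, against 4.64% of all sites lower and 0.519% higher, and the second condition of the choice used those counts. The edgeR test called 329 members (4.29%) lower and 154 (2.01%) higher in activated KO, against 17.5% and 10.9% of all sites. The second condition limited the size of these differences as well.

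RNA was tested for genes linked to members, which means a member inside the gene or within 10 kb of it. The members lay near 5770 genes in this way, of which 3805 were in the RNA table and 2848 passed the filter on low counts, out of 11980 genes tested. In WT, 1659 linked genes (58.3%) fell with activation, against 40.3% of all tested genes, and 801 (28.1%) rose, against 42.3%. In KO, 1677 (58.9%) fell, against 39.8%, and 769 (27%) rose, against 42.3%. The median change of linked genes was -0.55 in WT and -0.61 in KO, and that of all tested genes was 0.03 and 0.04. These RNA values had no part in the choice of the members.

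The share of genes that fell was higher the more members a gene had. Among genes with 0, 1, 2, 3 to 4, and 5 or more linked members, of which 8722, 1747, 561, 367 and 173 were tested, the share that fell in WT was 34.2%, 52.1%, 62.0%, 71.9% and 78.6%. In KO it was 33.5%, 52.3%, 62.6%, 74.7% and 80.3%. The median change went from 0.21 to -1.45 in WT and from 0.22 to -1.53 in KO between the first and the last class. Other properties moved with the class: the median number of linked sites of any kind was 4 in the first and 32 in the last, and the median naive WT level was 24.3 and 72.8 CPM. Their part in the result was not tested. Genes with members and no opened site fell in 60.1% of cases, genes with both in 56.6%, and genes with opened sites only in 31.2%, all in WT. Of 63 tested genes with a start within 1 kb of a member, 51 (81.0%) fell in WT and 7 rose, with a median of -2.13 in WT and -2.17 in KO. Of 7716 tested genes with a start within 1 kb of any site, 40.3% fell and 43.2% rose in WT, with a median of 0.05. This grouping was chosen after seeing the data.

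**Figure D4:**
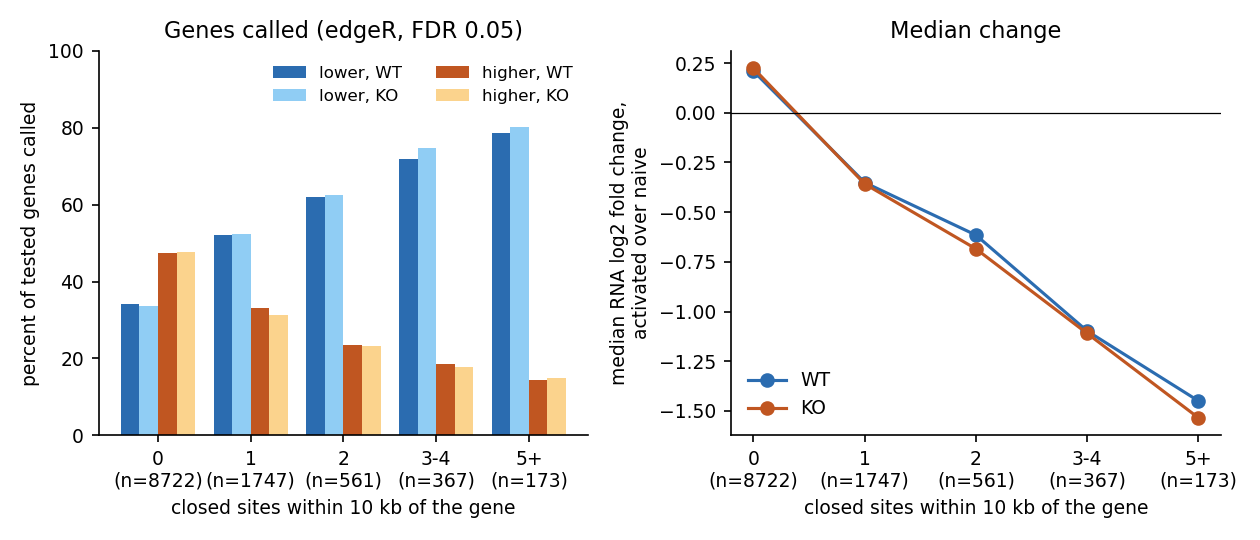
Percent of tested genes whose RNA fell or rose with activation (edgeR, adjusted p under 0.05), by the number of members linked to the gene, in WT and in KO. The share that fell is 34.2% with 0 members and 78.6% with 5 or more in WT, and 33.5% and 80.3% in KO.

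The genes with closed starts shown above followed both patterns. RNA of Rasgrp2 was 329, 306 and 268 CPM in naive WT and 3.12, 3.99 and 2.14 CPM in activated WT, and it fell by 6.73 ± 0.13 on the log2 scale in WT and by 6.41 ± 0.13 in KO. RNA of Txk fell by 4.39 ± 0.11 in WT and by 4.77 ± 0.11 in KO, from 132 ± 8.79 CPM in naive WT to 6.85 ± 1.28 CPM. Gmfg fell by 4.54 ± 0.24 and 4.24 ± 0.23, and Iqgap2 by 2.25 ± 0.10 and 1.80 ± 0.10. Hpgds, a prostaglandin D synthase, was low throughout, at 2.47 ± 1.29 CPM in naive WT and 0.926 ± 0.387 CPM in activated WT, a change of -1.53 ± 0.41 with an adjusted p of 0.0023. Cd160 rose although its start closed: its RNA was 2.23, 1.77 and 2.18 CPM in naive WT and 5.62, 10.3 and 9.20 CPM in activated WT, a change of 1.91 ± 0.25, and in KO the change was 2.27 ± 0.26.

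Genes of the naive and quiescent program carried many members. Of 612 sites linked to the 28 genes of this list, 73 (11.9%) were members, against 6.92% of all sites, and 22 of the genes had at least 1. Of these 22, RNA of 20 fell and 1 rose in WT, and 21 fell and 0 rose in KO. The whole list fell in much the same way, with 24 of 28 genes lower in WT and 26 in KO, against 40.3% and 39.8% of all tested genes, so these counts say little about the members. Lef1 had 11 members among 44 sites, whose summed signal was 301, 296 and 280 CPM in naive WT, 267, 251 and 249 CPM in naive KO, 34.4, 27.9 and 27.8 CPM in activated WT and 26.2, 27.3 and 25 CPM in activated KO. Lef1 RNA was 482, 558 and 452 CPM in naive WT and 71.2, 74.1 and 75 CPM in activated WT, and it fell by 2.88 ± 0.08 in WT and by 2.59 ± 0.08 in KO. Tcf7, with 3 members, fell from 1982 ± 125 to 259 ± 17.7 CPM in WT and from 2027 ± 176 to 357 ± 22.4 CPM in KO.

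S1pr1, the receptor for sphingosine 1-phosphate that guides exit from lymph nodes, has a member 5.75 kb from the gene, chr3:115704284-115704684, with 15.7, 15.6 and 13.2 CPM in naive WT and 1.34, 0.541 and 0.922 CPM in activated WT. Its RNA was 702, 655 and 645 CPM in naive WT, 621, 605 and 630 CPM in naive KO, 12.7, 8.83 and 8.74 CPM in activated WT and 4.77, 4.63 and 4.67 CPM in activated KO. The fall was larger in KO by 1.00 ± 0.16, with an adjusted p of 9.1e-04 for the interaction. Il7r, a chain of the IL-7 receptor, has a member 3.40 kb from the gene, chr15:9533342-9533742, that went from 63.5, 61.1 and 60.1 CPM to 9.28, 8.08 and 8.49 CPM in WT. Its RNA fell by 5.83 ± 0.17 in WT and by 6.91 ± 0.18 in KO. RNA of Klf2, a factor of quiescence and recirculation, fell by 6.42 ± 0.19 in WT and by 6.76 ± 0.20 in KO. Foxo1 fell by 2.50 ± 0.09 in WT and by 2.86 ± 0.09 in KO.

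**Figure D5:**
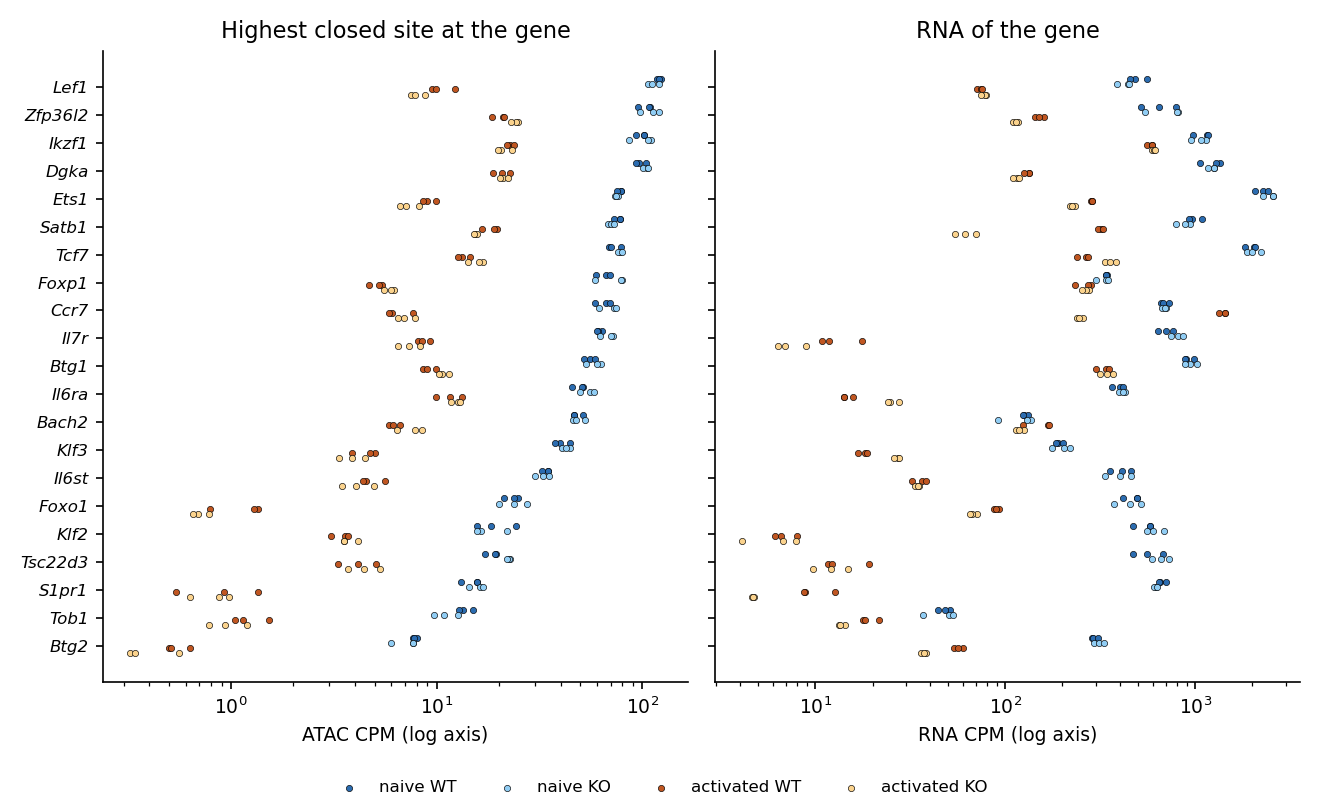
For 21 of the 22 genes of the naive list with a member, CPM of the gene's strongest member (ATAC) and CPM of its RNA in each group, on log axes; each point is 1 library. Closeness of the genotypes in activated ATAC was set by the choice of members. At Satb1 and Lef1 the activated ATAC genotypes still do not overlap, KO being lower. Summed over all members of a gene, activated ATAC was higher in KO without overlap at Tcf7, Zfp36l2 and Btg1. RNA of Ccr7 and Satb1 separates the genotypes in activated cells only.

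Ccr7 was the 1 linked gene of the naive list that rose in WT. Ccr7 is the chemokine receptor that brings T cells into lymph nodes. The member 7.38 kb from it, chr11:99136417-99136817, had 66.5, 58.7 and 69.3 CPM in naive WT, 72.8, 61.6 and 74.4 CPM in naive KO, 7.62, 6.04 and 5.86 CPM in activated WT and 7.84, 6.45 and 6.89 CPM in activated KO. Its RNA was 657, 674 and 731 CPM in naive WT, 704, 670 and 697 CPM in naive KO, 1430, 1332 and 1436 CPM in activated WT and 256, 239 and 244 CPM in activated KO. The site closed in both genotypes, while RNA was high in activated WT and low in activated KO with no overlap. The change was 0.90 ± 0.07 in WT and -1.61 ± 0.07 in KO, and the interaction was -2.51 ± 0.10, with an adjusted p of 1.1e-10.

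Satb1, a chromatin organizer of T cells, has a member at its start, chr17:51833035-51833435, with 77.5, 73.0 and 77.9 CPM in naive WT, 68.4, 70.6 and 72.9 CPM in naive KO, 19.6, 19.0 and 16.6 CPM in activated WT and 15.3, 15.6 and 15.2 CPM in activated KO. The activated genotypes did not overlap there, within the limit that the choice allowed. Its RNA was 962, 1087 and 932 CPM in naive WT, 942, 789 and 884 CPM in naive KO, 318, 307 and 325 CPM in activated WT and 70.3, 54.6 and 61.2 CPM in activated KO. RNA fell in both genotypes and by 2.16 ± 0.12 more in KO, with an adjusted p of 4.6e-09.

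The form seen at Ccr7 was also seen in Stat4 and Cblb, from other lists. Stat4 encodes the transcription factor activated by IL-12, and its member chr1:52022190-52022590 had 18.4, 19.2 and 22.1 CPM in naive WT, 19.5, 16.6 and 24.2 CPM in naive KO, 5.61, 2.79 and 2.49 CPM in activated WT and 3.07, 3.15 and 2.09 CPM in activated KO. Stat4 RNA was 111, 128 and 101 CPM in naive WT, 106, 95.4 and 103 CPM in naive KO, 262, 245 and 281 CPM in activated WT and 51.2, 47.1 and 52.8 CPM in activated KO. Its interaction was -2.23 ± 0.11, with an adjusted p of 1.5e-09. Cblb is a ubiquitin ligase that restrains T cell receptor signalling, and its strongest member, chr16:52056183-52056583, had 22.9, 20.2 and 17.5 CPM in naive WT, 3.44, 2.46 and 2.31 CPM in activated WT and 2.25, 2.09 and 2.05 CPM in activated KO. Cblb RNA was 138, 144 and 127 CPM in naive WT, 136, 108 and 134 CPM in naive KO, 253, 218 and 239 CPM in activated WT and 60.2, 58.8 and 63.2 CPM in activated KO. In both genes RNA rose in WT and fell in KO, with activated genotypes far apart, while naive RNA overlapped.

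Other genes of T cell receptor signalling mostly fell with few members each. Of 420 linked sites of the 22 genes, 31 (7.38%) were members, near the 6.92% of all sites, spread over 15 genes. RNA of 12 of these 15 fell and 3 rose in WT, and 13 fell and 0 rose in KO. Of the whole list 17 of 22 fell in WT and 18 in KO, against 40.3% and 39.8% of all tested genes. Cd28, the costimulatory receptor, had chr1:60758235-60758635 at 54.7, 55.8 and 56.5 CPM in naive WT and 4.42, 4.16 and 3.83 CPM in activated WT, and its RNA fell by 0.46 ± 0.08 in WT and by 1.01 ± 0.09 in KO. The interaction passed the test for Cblb, Cd28, Cd5, Cd6 and Ptpn22, all lower in KO, and for Dgkz, higher in KO. The call for Cd28 was lost without naive WT library 1, naive KO library 3 or activated KO library 3. That for Cd6 was lost without naive KO library 1, activated WT library 2 or 3, or any activated KO library. That for Dgkz held when naive WT library 3 or activated WT library 3 was left out and was lost when any other library was, and with RLE scaling.

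Activation and effector genes had few members, 9 of 235 linked sites (3.83%), against 6.92% of all sites. They lay in 5 genes: Cd44, Nr4a1, Ctla4, Prdm1 and Stat4. Of these 5, RNA of 4 rose and 1 fell in WT. Of the whole list of 24 genes 20 rose and 2 fell, against 42.3% and 40.3% of all tested genes. Cd44, an adhesion receptor of activated cells, had 5 members and 4 opened sites among 19 sites. The summed signal of its members was 113, 96.6 and 108 CPM in naive WT, 108, 89.3 and 114 CPM in naive KO, 9.64, 10.2 and 9.32 CPM in activated WT and 7.80, 6.50 and 8.75 CPM in activated KO. Cd44 RNA moved the other way, from 38.1, 31.8 and 24.4 CPM in naive WT to 270, 334 and 376 CPM in activated WT, and it rose by 3.25 ± 0.16 in WT and 3.05 ± 0.17 in KO. Nr4a1, an immediate early nuclear receptor, rose by 3.83 ± 0.15 in WT and 2.67 ± 0.15 in KO. Ctla4, an inhibitory receptor, rose by 5.76 ± 0.16 and 3.84 ± 0.17. Prdm1, the gene of BLIMP1, was the 1 of the 5 that fell in WT, by 4.15 on the log2 scale, and it fell by 4.05 in KO.

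Of 240 sites linked to the 20 cyclic AMP, PKA and CREB genes, 10 (4.17%) were members, against 6.92% of all sites. They lay in Prkacb, Pde4b, Pde4d, Crem and Adcy7. RNA of 4 of the 5 genes fell and 1 rose in WT, and 4 fell and 0 rose in KO. Of the whole list of 20 genes 7 fell and 11 rose in WT, against 40.3% and 42.3% of all tested genes. Pde4d encodes a phosphodiesterase that breaks down cyclic AMP, and its member chr13:109837505-109837905 had 68.8, 67.4 and 67.3 CPM in naive WT, 67.2, 61.5 and 63.2 CPM in naive KO, 4.82, 3.96 and 5.17 CPM in activated WT and 3.49, 3.25 and 3.72 CPM in activated KO. Pde4d RNA was 90.1, 148 and 118 CPM in naive WT, 65.2, 57.7 and 63.9 CPM in naive KO, 66.5, 68.0 and 70.8 CPM in activated WT and 6.69, 5.99 and 6.81 CPM in activated KO. The genotypes did not overlap in RNA in either state, and the fall was larger in KO by 2.46 ± 0.22. Crem, a transcription factor that cyclic AMP induces, rose by 1.89 in WT, and its difference of 0.10 in KO did not pass the test. The member at Crem had 8.17, 10.9 and 9.77 CPM in naive WT and 6.22, 6.12 and 5.49 CPM in naive KO. That at Prkacb had 4.69, 6.29 and 5.34 CPM in naive WT and 2.16, 3.77 and 3.39 CPM in naive KO. Both were lower in naive KO without overlap, while the naive genotypes overlapped in the summed members of Pde4b and in the member of Adcy7.

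Homing and adhesion receptors had 20 members among 172 linked sites (11.6%), against 6.92% of all sites, in 11 genes. Of the 10 tested, RNA of 7 fell and 1 rose in WT, and 8 fell and 1 rose in KO. Of the 18 tested genes of the whole list 11 fell and 4 rose in WT, against 40.3% and 42.3% of all tested genes. The whole list thus moved much as the linked genes did, so these counts say little about the members. Cxcr5, the receptor for the B cell follicle chemokine, had the member chr9:44533100-44533500, 6.66 kb from the gene, at 102, 92.8 and 111 CPM in naive WT and 10.3, 10.3 and 7.80 CPM in activated WT. Itga6, an integrin chain with 3 members, had RNA of 231 CPM in naive WT and 42.3 CPM in activated WT.

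Some loci held dense groups of members. The immunoglobulin heavy chain locus had 48 members among 162 sites (29.6%), from chr12:113481487 to chr12:116011178. Their summed signal was 622, 598 and 666 CPM in naive WT, 655, 608 and 640 CPM in naive KO, 55.7, 58.2 and 58.5 CPM in activated WT and 50.4, 50.5 and 48.1 CPM in activated KO. Among the 10 B cell genes of the marker list 3 of 67 linked sites (4.48%) were members: 2 of 27 at Ebf1, a B lineage transcription factor, and 1 at Cd79b, a chain of the B cell receptor. Summed RNA of the 10 B cell genes was 302 to 320 CPM in naive WT and 298 to 325 CPM in naive KO, nearly all of it Ighm. In activated cells it was 106 to 132 CPM in WT and 171 to 198 CPM in KO, which did not overlap. The part of B cell RNA in the locus' signal was not tested. The T cell receptor alpha locus had 35 members among 169 sites, with 333, 368 and 375 CPM in naive WT and 27.1, 31.3 and 29.0 CPM in activated WT.

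Myeloid and dendritic markers had 16 members among 56 linked sites (28.6%), against 6.92% of all sites. They were 8 of 18 sites at Itgam, 5 of 15 at Flt3, 2 of 9 at Spi1 and 1 of 2 at Csf3r. Flt3, Spi1 and Csf3r RNA was 0.110, 0.0591 and 0.0403 CPM in naive WT, near 0, while Itgam, an integrin chain of myeloid cells and some lymphocytes, had 9.58 ± 1.45 CPM and fell to 0.217 ± 0.143 CPM. The summed RNA of the 10 markers was 12.7 to 15.5 CPM in naive WT and 3.8 to 5.0 CPM in activated WT. Its part in the closing at these genes was not tested. Regulatory T cell markers had 4 members among 40 sites, 3 of them linked to Foxp3. Summed RNA of these markers was 7.49 to 8.92 CPM in naive WT and 794 to 916 CPM in activated WT. Of the 3 markers 2 rose and 1 fell in WT. The list includes a gene that is also among the activation and effector genes, so the sum does not measure regulatory T cells alone. CD8 and NK markers had 3 members among 29 sites, with summed RNA of 27.8 to 31.4 CPM in naive WT and 178 to 256 CPM in activated WT. The part of these cell types in the closing was not tested. Erythroid genes had 0 members among 4 sites.

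The 10 genes with the most members were Wwox with 22 of 71 sites, Prkce with 16 of 57, Foxp1 with 15 of 138, Thada with 14 and Chn2, Cox10, Med13l, Prex1, Sgms1 and Ubac2 with 12 each. Prex1, a RAC exchange factor, fell by 3.49 in WT and 3.33 in KO, and Med13l, a Mediator subunit, by 2.23 and 2.24. Foxp1, a forkhead factor of quiescence, had 27 opened sites as well, and its RNA fell by 0.50 ± 0.08 in WT and by 0.44 ± 0.08 in KO. Cox10, a mitochondrial heme enzyme, rose by 0.59 and 0.73. In all, 25 of the 173 tested genes with 5 or more members rose in WT, among them Cd44, the formin gene Diaph3, by 5.81, and Sox5, by 3.59.

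Among the largest falls and rises of linked genes were some that left no counts in 1 state. Lrrc75b had 0 counts in all 3 activated WT libraries and was at least 316-fold lower than in naive WT, by a floor of 3 counts over the group. Cd7, a T cell surface receptor, had 25.9, 34.9 and 33.8 CPM in naive WT and 0, 0 and 0.0929 CPM in activated WT. Slpi and Ncmap were at least 61.7-fold and 54.6-fold lower by the same floor. In the other direction Lipg, an endothelial lipase gene, had 0 counts in naive cells and was at least 273-fold higher in activated WT and 178-fold in activated KO. Zeb2, a transcriptional repressor of effector T cells, had 0, 0.0886 and 0 CPM in naive WT, 30.5, 27.5 and 28.2 CPM in activated WT and 13.8, 12.2 and 11.9 CPM in activated KO, although 1 of its 24 sites closed.

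The RNA response to activation differed between the genotypes in a small part of the linked genes. The interaction was lower in KO in 113 (3.97%), against 2.52% of all tested genes, and higher in 62 (2.18%), against 1.18%. It was lower in 2.45% of the 1347 tested genes with members and no opened site, close to the share of all genes, and in 5.33% of the 1501 with both. It was higher in 2.23% and 2.13%, in the same order, both above the 1.18% of all tested genes. Without activated KO library 2 or 3 the count of higher genes was 37 or 39. Besides Ccr7, Stat4, Satb1 and Cblb, the smallest p with a larger fall in KO was that of Ap3b1, with an interaction of -1.27. Ltb, a cytokine of lymphoid tissue, fell less in KO: its RNA was 807 ± 72.1 CPM in naive WT, 877 ± 103 CPM in naive KO, 109 ± 9.55 CPM in activated WT and 337 ± 5.74 CPM in activated KO, and the interaction was 1.5 ± 0.14. Il18r1, which encodes part of the receptor for IL-18, had 93.6 ± 1.62, 82.2 ± 13.9, 7.70 ± 0.926 and 20.7 ± 1.69 CPM in the same order, with an interaction of 1.61 ± 0.18.

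In naive cells 10 linked genes were lower in KO, against 0.117% of all tested genes, and 3 were higher, against 0.125%. The 3, named after their values were seen, were Izumo1r, Ppic and Tns4. The count of lower genes was 2 without naive WT library 2, 6 without naive KO library 1 and 1 without naive KO library 3. The count of higher genes was 0 without naive WT library 2, naive KO library 1, naive KO library 3 or activated KO library 2, and 1 without naive WT library 1 or activated WT library 3. Summed erythroid RNA was 1.17 to 4.11 CPM in naive WT and 5.48 to 10.6 CPM in naive KO, and its part in these calls was not tested. In activated cells 371 linked genes were lower in KO, against 9.04% of all tested genes, and 208 were higher, against 5.89%; the latter count was 134 without activated KO library 3. Lower in KO were 9.65% of genes with members and no opened site and 16.1% of those with both. Higher in KO were 6.98% and 7.59%, in the same order.

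After IL-7 and forskolin, 632 of 2793 tested linked genes (22.6%) were lower in KO, against 18.8% of all tested genes, and 708 (25.3%) were higher, against 19.7%. Levels of this condition come from a table of its own and are set beside the others without a test between them. Ccr7 had 620 ± 43.6 CPM in WT and 379 ± 1.90 CPM in KO, Satb1 had 1772 ± 31.0 and 870 ± 22.0 CPM, Cblb had 487 ± 11.1 and 117 ± 6.21 CPM, and Stat4 had 132 ± 2.16 and 36.8 ± 2.41 CPM. All 4 were lower in KO, as in activated cells. Pde4d, at 629 ± 15.7 CPM in WT and 103 ± 2.71 CPM in KO, was lower by 2.63 ± 0.04. Il7r was higher in KO here, at 501 ± 22.5 CPM in WT and 648 ± 57.8 CPM in KO, and S1pr1 was lower, at 1065 ± 28.6 and 535 ± 3.91 CPM. No ATAC library of this condition was analysed here, so the state of the members in these cells was not measured.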

How the data were processed

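Members and gene lists were chosen with earlier results of these data known. ATAC-seq and RNA-seq libraries of naive and activated cells, and RNA-seq libraries of cells given forskolin, were used, 3 per group. The authors deposited counts per site and per gene. The authors' deposited tables also hold log2 fold changes and p-values with FDR for KO against WT, used here only where named. Sites are on mm10, per the submitters' processing notes. The aligner, the peak caller, read filters and the strand setting are not given in the sources used here. Coordinates are printed as deposited, and whether starts count from 0 or 1 is not stated. Reads of overlapping genes may be shared.

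ATAC tables were joined on chromosome, start and end. CPM is a count divided by the column sum, scaled to a total of 1000000. All 110797 sites and 11980 genes (11658 with forskolin) that passed filterByExpr were fitted with edgeR 4.0.16 (quasi-likelihood, TMM scaling, a mean per group, R 4.3.3). P-values were Benjamini-Hochberg adjusted over the whole table, with a threshold of 0.05. Of the RNA table, 1314 lines without a symbol, 0.128% to 0.159% of a library, were left out. Errors of fold changes are SE, others SD over 3 libraries.

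Genes were linked within 10 kb of RefSeq GRCm38.p6 spans, which give no exons. Gene starts come from RefSeq's promoter table, which is not complete. Alternatives were other scalings, filters, thresholds and link distances, DESeq2 1.42.0, a replicate block and each library left out. Named sites were the 8 highest in naive WT, the 8 lowest ratios, the highest member per list gene and the smallest p in naive cells. Named genes were the 10 with the most members, the 8 largest changes each way, linked list genes and up to 5 interactions each way. Genes at promoter windows and others so marked were picked after their values were seen. Some genes of the lists are counted but not reported here by name.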

Additional observations from a re-analysis of the deposited data

Results flagged for a closer look

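Among the named linked genes, 29 differed between the genotypes in their RNA response to activation, by the edgeR interaction test at an adjusted p under 0.05. The difference is given as KO minus WT in log2. It was negative in 19 genes, with a larger fall or a smaller rise in KO. Among naive T cell genes it was -2.51 for Ccr7, -2.16 for Satb1, -1.08 for Il7r, -1.0 for S1pr1, -0.70 for Btg2 and -0.48 for Ets1. Among receptor signalling genes it was -1.85 for Cblb, -0.72 for Ptpn22, -0.63 for Cd5, -0.54 for Cd28 and -0.39 for Cd6. Among effector genes it was -2.23 for Stat4, -1.92 for Ctla4 and -1.15 for Nr4a1. Among cyclic AMP genes it was -2.46 for Pde4d, -1.79 for Crem and -1.20 for Pde4b. It was -1.27 for Ap3b1 and -0.51 for Thada.

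The difference was positive in 10 genes, with a smaller fall or a larger rise in KO. It was 1.61 for Il18r1, 1.5 for Ltb, 1.28 for Tmem154, 1.14 for Sytl1 and 0.95 for Sorl1. It was 0.71 for Il6ra, 0.65 for Rac2, 0.54 for Klf3, 0.43 for Tcf7 and 0.37 for Dgkz. Besides Cd28 and Cd6, 3 calls rested on single libraries. For Il7r it was lost without naive WT library 3, naive KO library 2 or 3, or activated KO library 1 or 3, and without the filter on low counts. For Tcf7 it was lost when 1 of 7 libraries was left out: naive WT library 2, naive KO library 2 or 3, activated WT library 1 or 2, or activated KO library 2 or 3. For Dgkz it was lost in 10 of 12 such fits.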

How the results depend on the processing

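The set grew to 11607 members with a WT threshold of -1.5 and shrank to 4906 with -2.5. It was 11085 with the TMM library sizes that the edgeR fits use, holding 7661 of the members, 6046 with 1 CPM added and 5656 with a genotype threshold of 0.25. It was 7490 to 7806 when 1 library was left out. Members lower in activated KO numbered 7668 to 7672 with 1 library left out, and no alternative moved that count by over 1.5 times. In naive cells the 181 lower members became 82 at an FDR of 0.01, 325 with the replicate block and 83 to 359 with 1 library left out. The 60 higher ones became 15 at an FDR of 0.01, 27 with RLE scaling, 185 with the replicate block, 32 with DESeq2 and 14 to 139 with 1 library left out.

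With links out to 50 kb, 2618 genes fell and 1813 rose in WT, and 2604 fell and 1790 rose in KO. Of genes whose start lay within 1 kb of a member, an alternative chosen after seeing the data, 51 fell and 7 rose in WT and likewise 51 and 7 in KO, and the interaction was lower in 1 and higher in 1. With 1 library left out, 1636 to 1681 fell and 777 to 816 rose in WT, 1658 to 1704 fell and 756 to 788 rose in KO, and the interaction was lower in 80 to 131 and higher in 37 to 76. For KO against WT in naive cells, the 10 lower genes became 16 with DESeq2 and 0 with start sites, and 1 to 15 with 1 library left out. The 3 higher became 6 without the low-count filter, 6 with the replicate block, 7 with DESeq2, 5 within 50 kb and 0 with start sites, and 0 to 4 with 1 library left out. In activated cells the counts were 557 lower and 355 higher within 50 kb, 5 and 5 with start sites, and 254 to 398 and 134 to 235 with 1 library left out. With forskolin they were 1049 and 1177 within 50 kb, 9 and 17 with start sites, and 552 to 591 and 633 to 667 with 1 library left out. Link distances change how many genes are counted. The cause of the other changes was not tested.

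The replicate block changed no other count by over 1.5 times. The labels give no shared origin for libraries of the same number. Deviations from group means of same-numbered libraries correlated with a median of 0.079 in ATAC, 0.183 in RNA and 0.161 in forskolin RNA, against -0.055, -0.167 and -0.055 for different numbers. The lowest same-number values were -0.007, 0.004 and 0.078. In forskolin RNA every same-number value was above every other, a hint from the data and not from the design. No named gene or site reversed direction after being called. In activated ATAC libraries 3 counts equal 0.118 to 0.145 CPM. That is a floor for reading a level and covers counting error only. Differences between genotypes below about that amount were not detectable at this depth, and larger ones may have been missed as well. Some activated members and genes with few counts rest on little signal. Libraries may share animals, so p-values may be too small for a statement about mice.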
